A study of Mus musculus with 7 samples.

Results

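The androgen receptor coregulators followed here in mouse quadriceps were Prmt6, Kdm1a, Ncoa1, Ncoa2, Ncoa3, Ncoa4, Ncor1 and Crebbp, 8 genes. They were chosen by name, and every non-control array probe that carries the name of a member, or whose accession now belongs to it, was taken, which gave 15 probes for 8 of the 31131 genes with a probe. Of these probes, 12 were well above background on all 7 arrays and covered 7 genes, and the 3 probes of Prmt6 were not measurable by the filter used. The 7 arrays came from C57BL/6 mice aged 3 months, 4 of them WT and 3 AR113Q, with 1 mouse per array. AR113Q mice are a knock-in model of spinal and bulbar muscular atrophy in which the mouse locus carries a humanized androgen receptor with an expanded CAG tract, so the protein is made wherever that locus is active and not in muscle alone. The labels name the controls WT, while the study's results text describes a humanized receptor with a short CAG tract for them, and which of these the 4 arrays hold cannot be told apart here. The age lies before the onset of motor dysfunction in this line, and the comparison asks what had changed in muscle RNA by then.

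The androgen receptor is a ligand-activated transcription factor. With androgen bound it recruits coactivators to DNA: the p160 proteins encoded by Ncoa1, Ncoa2 and Ncoa3 dock on the receptor and bring in acetyltransferases such as CBP, the product of Crebbp, whereas corepressor complexes built on NCoR, the product of Ncor1, bring in histone deacetylases. In spinal and bulbar muscular atrophy the glutamine tract encoded by the CAG repeat is too long, disease is androgen dependent, and skeletal muscle is a site of toxicity as well as motor neurons. LSD1, the product of Kdm1a, removes methyl groups from histone lysines, and PRMT6 methylates arginines, and both have been described as cofactors of the receptor.

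Probe sequences matter for 3 members, because they decide which transcript a value can be credited to. The array probes are 60 bases long, the coordinates come from the array's own annotation (mm9), and each sequence is written 5′ to 3′ in the sense of the transcript. The whole Crebbp probe is shown because most of it is a run of CAG and CAA triplets, with the CAG triplets of the run in capitals, and it lies at chr16:4084710-4084769 on the minus strand.
Crebbp A_55_P1965836: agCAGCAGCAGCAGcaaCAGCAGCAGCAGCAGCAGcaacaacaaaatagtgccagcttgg
The 2 Ncoa3 probes are shown in 30 bases each because they gave different changes. The brighter one, at chr2:165898682-165898741 on the plus strand, holds the polyadenylation hexamer AATAAA (capitals), which 12.6% of all probes hold on the strand printed, and the dimmer one lies upstream at chr2:165895353-165895412.
Ncoa3 A_55_P2183750: gatgctcttgtaAATAAAggtttctattta
Ncoa3 A_55_P2071868: agcctacaacatggtgcatatgaacagcag
The first 30 bases of the Ncoa4 probe are shown because its annotated position, chr12:120502595-120502654 on the plus strand, is not on the chromosome of Ncoa4. RefSeq (GRCm38.p6, used here for names and chromosomes) lists Ncoa4 on chromosome 14 and a pseudogene, Ncoa4-ps, on chromosome 12. Whether the probe reads the gene, its copy or both was not tested.
Ncoa4 A_55_P2016862: cattttaggttgcagggaactttgtagttt

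Values below are log2 of the normalized signal unless another scale is named, a change is AR113Q minus WT on that scale, and its standard error (SE), 95% interval and adjusted p come from limma with Benjamini-Hochberg adjustment over all 20991 probes tested. With the threshold for the adjusted p at 0.05, 5 of the 12 member probes, from 4 genes, were higher in AR113Q and 1 was lower. Among all tested probes the same rule called 22.2% higher and 21.6% lower. Ncoa3 is among the 4 genes by its dimmer probe alone, and its brighter probe gave -0.20. None of the 12 probes also reached an absolute log2 change of at least 1, the combined rule for a differentially expressed gene, which called 12.2% of all probes higher and 12.6% lower; at an unadjusted p of at most 0.05, limma called 10 of the 12, against 52% of all probes. The median change of the 12 member probes was 0.49, against 0.01 over all probes, and the groups did not overlap for 7 of 12, against 49.6% of all probes. The 7 arrays were spread over 5 slides. Both genotypes met on slide 2 alone, where WT replicate 2 can be set against AR113Q replicate 1, and that difference, 1 array against 1, is given beside each main result. Outside slide 2 slide and genotype cannot be told apart. A fit with slide as a fixed effect takes its change for each probe from slide 2, so it is no second check. Its spread for a single probe comes from WT replicates 3 and 4 alone, which share slide 4. A loss of calls there cannot be read as an effect of slide. With slide as a fixed effect, limma called 0 of the 12 by the adjusted p, as it did of all probes (0%), and 4 of the 12 at an unadjusted p of at most 0.05, against 37.8% of all probes. The plot of signal by array shows every value.

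**Figure D1:**
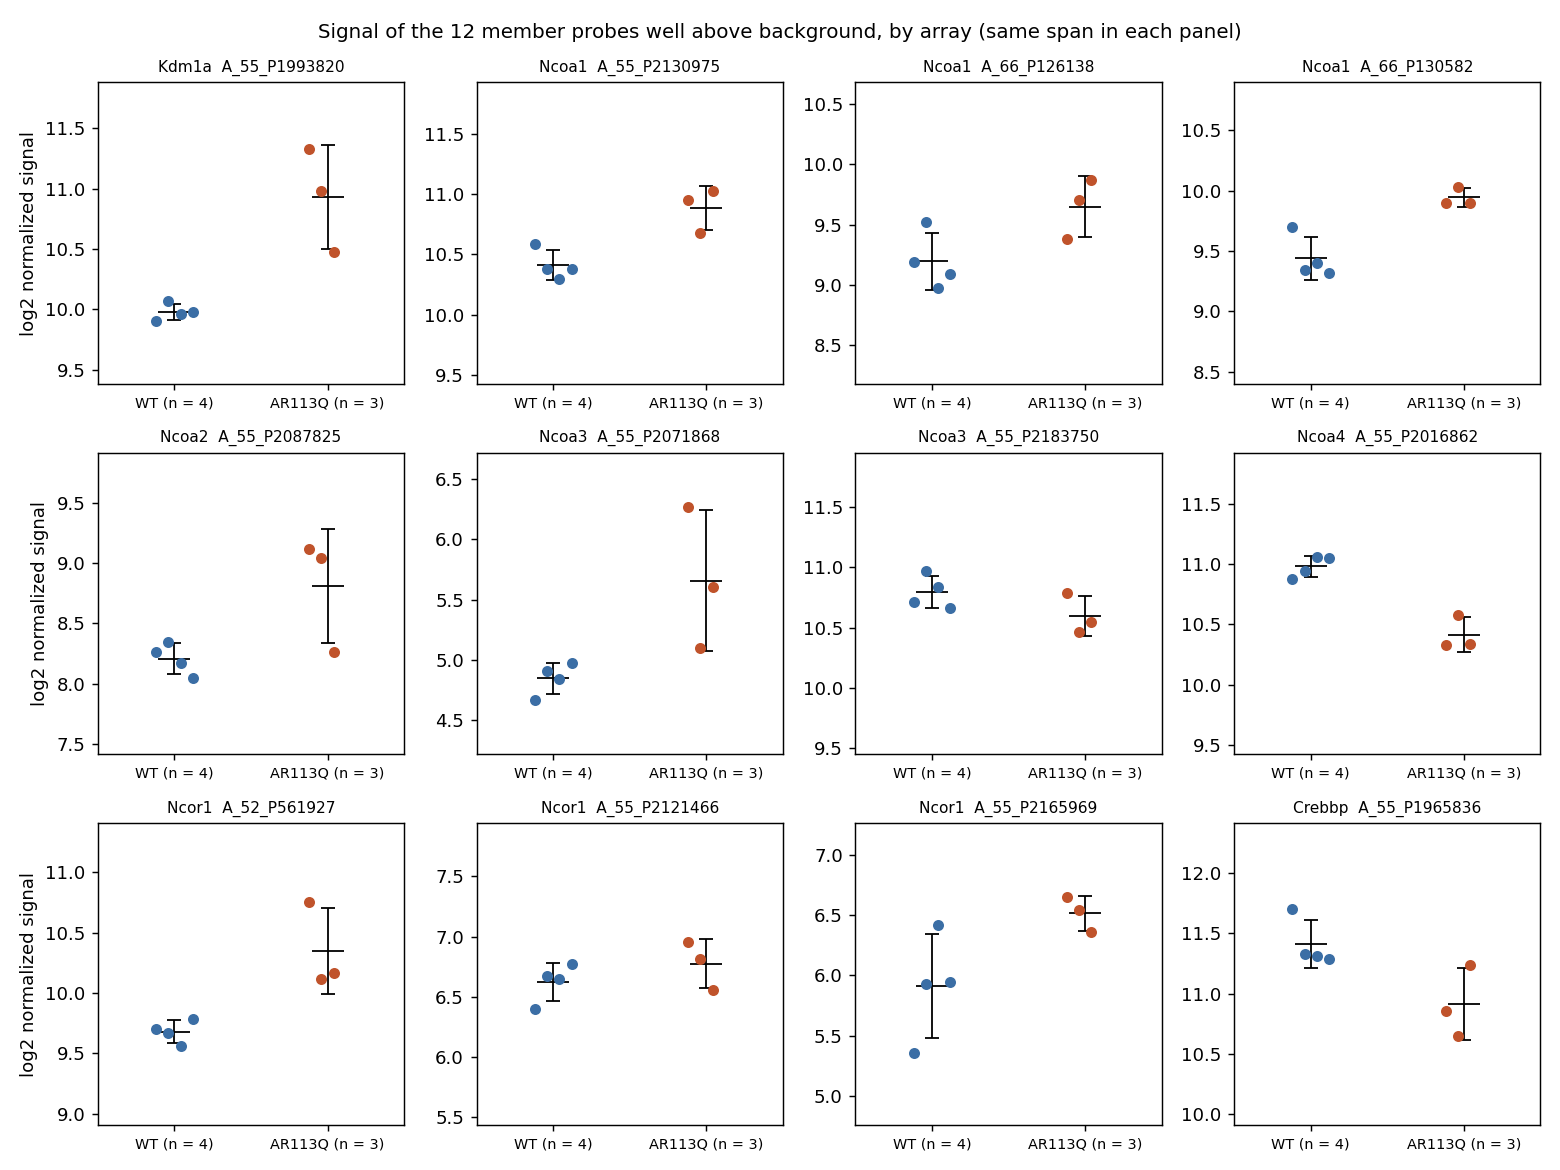
Log2 normalized signal (vertical axes, all of the same span) of the 12 member probes that were well above background, for WT (4 arrays, blue) and AR113Q (3 arrays, orange); bars are the mean and SD. The AR113Q points of Kdm1a, 10.47 to 11.33, all lie above the WT points, 9.90 to 10.07, and those of Ncoa4 all lie below.

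Kdm1a showed the largest change among the 12 member probes in this setting; the dim Ncoa3 probe described below exceeded it within slide 2 and without AR113Q replicate 2 (1.09 against 0.92). LSD1 acts with CoREST as a corepressor and with the androgen receptor as an activator. Its single probe, at chr4:136106506-136106565 on the minus strand, read 9.90, 10.07, 9.96 and 9.98 in the WT arrays and 11.33, 10.98 and 10.47 in the AR113Q arrays. The WT arrays lay close together, the AR113Q arrays were spread over nearly 1 log2 unit, and the groups did not overlap. The means were 9.98 ± 0.07 (SD, n = 4) and 10.93 ± 0.43 (SD, n = 3), a change of 0.95 (SE 0.21, 95% interval 0.47 to 1.44, adjusted p = 0.00786) or 1.93-fold. It ranked 4973 of 20991 by p-value. Within slide 2 the difference was 1.26.

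Partners of LSD1 were described by a list of its paralog and the CoREST complex. Of 11 genes tested, by the brightest probe of each, 0 were higher and 2 lower at an adjusted p of at most 0.05, with a median change of -0.15. Across all 16577 genes taken this way, 21% were called higher and 22.5% lower, and the median was -0.01. The 2 lower genes were Kdm1b, the other flavin-dependent histone demethylase (-0.73, adjusted p = 0.00538), and Rcor2, a CoREST scaffold (-1.01, adjusted p = 0.0148). Rcor1, the CoREST protein itself, gave 0.38 (adjusted p = 0.0745), and the deacetylase Hdac1 gave -0.15 (adjusted p = 0.487).

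Among the p160 coactivators, Ncoa1 was higher in AR113Q by 2 of its 3 probes. The brightest, at chr12:4249455-4249514 on the minus strand, read 10.58, 10.38, 10.30 and 10.38 in WT and 10.95, 10.68 and 11.02 in AR113Q. Every AR113Q array lay above every WT array, and the change was 0.47 (SE 0.16, adjusted p = 0.0411). The second probe, about 2 kb away at chr12:4247469-4247528, read 9.70, 9.34, 9.40 and 9.32 in WT and 9.90, 10.03 and 9.90 in AR113Q. Its groups again did not overlap, with a change of 0.51 (SE 0.16, adjusted p = 0.0313). The third probe, to which the array annotation gives no position, read 9.19, 9.53, 8.97 and 9.09 in WT and 9.38, 9.70 and 9.87 in AR113Q. WT replicate 2 was above AR113Q replicate 1 there, and the change of 0.45 (SE 0.20) did not pass (adjusted p = 0.0920). The change of the brightest probe differed from that of the second by -0.03 (95% interval -0.40 to 0.33) and from that of the third by 0.02 (95% interval -0.44 to 0.48). Within slide 2 the probes with a position differed by 0.57 and 0.56, and the third by -0.15.

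Ncoa2 was read by 1 probe, at chr1:13129343-13129402 on the minus strand. The WT arrays gave 8.26, 8.34, 8.17 and 8.04, and the AR113Q arrays 9.12, 9.04 and 8.26. AR113Q replicates 1 and 2 lay above all WT arrays, and replicate 3 lay within the WT range. The change was 0.60 (SE 0.23, 95% interval 0.08 to 1.13) and did not pass (adjusted p = 0.0622). Without AR113Q replicate 3 it was 0.88 (adjusted p = 0.00476), and with all arrays kept it also passed with a filter on all 7 arrays, an intensity trend or array weights (adjusted p 0.0257 to 0.0469). Within slide 2 the difference was 0.77.

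Ncoa3, the third p160 gene, gave a different answer by each of its probes. The bright probe with the polyadenylation hexamer read 10.71, 10.97, 10.84 and 10.66 in WT and 10.79, 10.46 and 10.55 in AR113Q. The groups overlapped, and the change was -0.20 (SE 0.16, 95% interval -0.56 to 0.17, adjusted p = 0.343). The dim upstream probe read 4.67, 4.91, 4.84 and 4.97 in WT and 6.27, 5.10 and 5.61 in AR113Q, so the groups were apart and the change was 0.81 (SE 0.26, adjusted p = 0.0368). Within slide 2 the difference was -0.18 for the bright probe and 1.36 for the dim one. A direct test of the bright minus the dim probe gave a difference of -1.01 between their changes (SE 0.21, 95% interval -1.50 to -0.51, adjusted p = 0.0137), and 21.8% of all 4414 same-gene probe pairs passed that test. The dim probe's change was 0.19 after normexp correction, 0.11 in the authors' normalized values, 0.60 with 75th percentile scaling and 0.51 without AR113Q replicate 1, with adjusted p up to 0.313 over all alternatives, and the difference between the probes was -0.39 after normexp correction (adjusted p = 0.0632) and -0.31 in the authors' values (adjusted p = 0.0798). The bright probe stayed without a call in all 20 alternatives, and its direction turned only where both probes were averaged (0.31).

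Ncoa4 was the 1 member called lower. Its product was first described as a coactivator of the androgen receptor and is also the receptor that carries ferritin to lysosomes. The probe read 10.88, 10.94, 11.06 and 11.06 in WT and 10.33, 10.58 and 10.34 in AR113Q. All AR113Q arrays lay below all WT arrays, with means of 10.98 ± 0.09 (SD, n = 4) and 10.42 ± 0.14 (SD, n = 3). The change was -0.57 (SE 0.15, 95% interval -0.91 to -0.23, adjusted p = 0.0152), that is, 1.48-fold lower, and -0.61 within slide 2. As given above, the annotated position of this probe is on the chromosome of the pseudogene, and the value is that of the probe.

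Of the other nuclear receptor coactivators, 5 genes were tested, 1 was higher and 0 lower, with a median change of 0.25. The higher one was Ncoa6, a scaffold of histone methyltransferase complexes (0.67, adjusted p = 0.0220). Med1, the Mediator subunit that binds nuclear receptors, gave 0.29 (adjusted p = 0.188), and Ppargc1a, the regulator of mitochondrial genes, gave -0.37 (adjusted p = 0.425).

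Ncor1 was higher by its brightest probe. That probe, at chr11:62134649-62134708 on the minus strand, read 9.70, 9.67, 9.56 and 9.78 in WT and 10.76, 10.12 and 10.16 in AR113Q. The groups did not overlap, AR113Q replicate 1 stood highest, and the change was 0.67 (SE 0.19, 95% interval 0.23 to 1.11, adjusted p = 0.0230) or 1.59-fold, with 1.09 within slide 2. A second probe, at chr11:62130192-62130251, read 6.40, 6.68, 6.65 and 6.77 in WT and 6.95, 6.82 and 6.56 in AR113Q. These groups overlapped, with a change of 0.15 (SE 0.17, adjusted p = 0.493) that turned to -0.012 when arrays were scaled to their 75th percentile. The third probe, for another annotated transcript and at chr11:62215073-62215132, read 5.36, 5.93, 6.42 and 5.94 in WT and 6.65, 6.54 and 6.36 in AR113Q. WT replicate 3 lay within the AR113Q range, and the change of 0.60 (SE 0.24) did not pass (adjusted p = 0.0776). It was 0.77 without WT replicate 3 (adjusted p = 0.0298), 0.42 without WT replicate 1, 0.27 after normexp correction and 0.17 in the authors' values, and of these the first alone passed. The change of the brightest probe exceeded that of the second by 0.52 (SE 0.17, adjusted p = 0.0662) and that of the third by 0.07 (SE 0.28, adjusted p = 0.898), and neither passed in this setting. The first difference passed in 5 of 18 alternatives, among them normexp correction (0.54, adjusted p = 0.0160) and the authors' values (0.56, adjusted p = 0.0108), and the other in the authors' values only (0.45, adjusted p = 0.0458).

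Among 7 genes listed for the NCoR complex, 3 were higher and 0 lower, with a median change of 0.46. Sin3a (1.94, adjusted p = 0.00148) and Sin3b (1.54, adjusted p = 0.00105) encode scaffolds of a deacetylase complex. Tbl1xr1, which encodes a core subunit of the NCoR complex, gave 1.42 (adjusted p = 0.00150). The deacetylase Hdac3 gave 0.10 (adjusted p = 0.610).

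Crebbp, read by 1 probe, the CAG run shown above, was lower in each AR113Q array than in any WT array. The WT arrays gave 11.70, 11.33, 11.31 and 11.29, and the AR113Q arrays 10.86, 10.65 and 11.24. AR113Q replicate 3 lay just below the lowest WT array, and WT replicate 1 stood above the other WT arrays. The change was -0.49 (SE 0.19, 95% interval -0.94 to -0.05) and did not pass (adjusted p = 0.0709), with -0.47 within slide 2. It passed without AR113Q replicate 3 (-0.65, adjusted p = 0.0253). With all arrays kept it also passed with an intensity trend (adjusted p = 0.0452) or array weights (-0.59, adjusted p = 0.0433). The probe holds 14 CAG or CAA triplets in a row, of which up to 6 CAG triplets follow each other. A run of 5 CAG triplets was found on the printed strand of 6 of 39429 probes (0.0152%), a search made after the values were seen. Over these 6 probes the change ran from -0.69 (Trp63, adjusted p = 0.0188) to 0.35 (BC051142, adjusted p = 0.206), and the other 3 beside Crebbp gave -0.33 (Pif1), -0.17 (Git2) and -0.06 (Arhgap17), none of which passed. Whether transcripts with other CAG tracts add to the Crebbp signal was not tested.

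The acetyltransferase list, the CBP paralog included, held 6 tested genes, 2 higher and 1 lower, with a median of 0.51. Ep300, which encodes the paralog of CBP, gave 1.18 (adjusted p = 0.0148) from a WT mean of 4.76. Kat5, a coactivator of the androgen receptor, gave 0.74 (adjusted p = 0.00894), and Kat2a gave -0.94 (adjusted p = 0.00424).

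**Figure D2:**
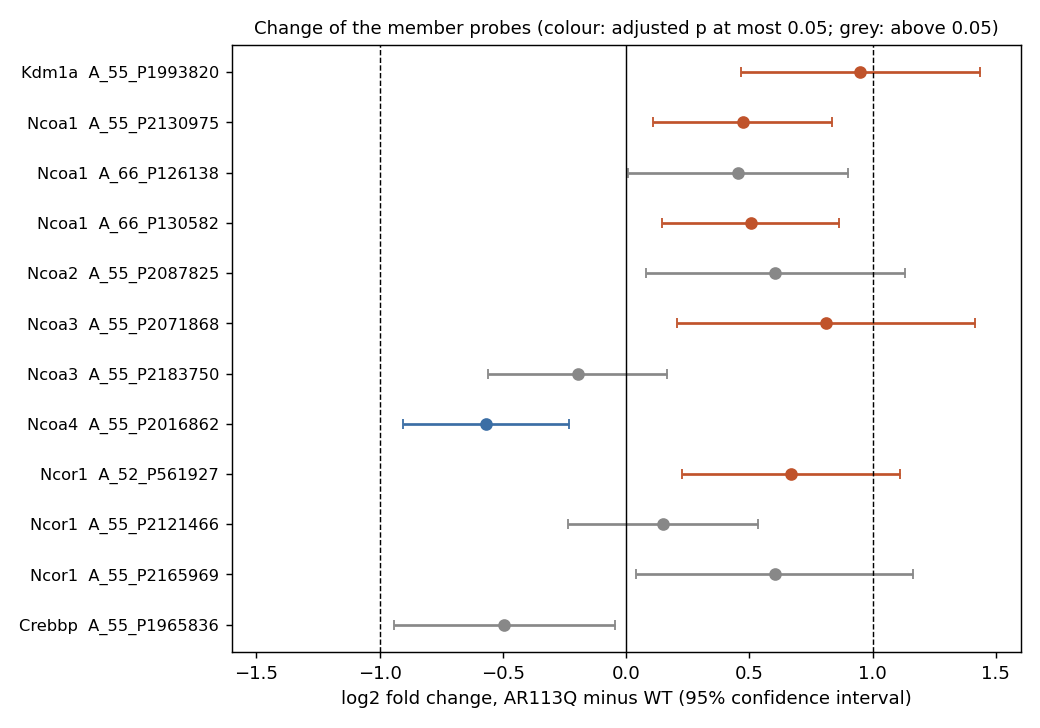
Log2 fold change, AR113Q minus WT (horizontal axis), with its 95% confidence interval for the 12 member probes; dashed lines mark -1 and 1, and colour marks an adjusted p of at most 0.05. The 5 orange intervals lie above 0, Ncoa4 lies below it at -0.57, and no point reaches -1 or 1.

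Prmt6 could not be compared. Its 3 probes, at chr3:110049190-110049249, chr3:110050018-110050077 and chr3:110051517-110051576 on the minus strand, were well above background on 2, 1 and 2 of the 7 arrays. The first read 2.85, 3.94, 2.04 and 3.33 in WT and 2.22, 3.52 and 3.73 in AR113Q. The second read 3.28, 2.93, 3.75 and 3.06 in WT and 4.20, 2.88 and 4.39 in AR113Q. The third read 3.27, 4.30, 3.55 and 3.38 in WT and 1.91, 3.44 and 4.04 in AR113Q. In each probe the groups overlapped, and the highest value came from a WT array in 2 probes and from an AR113Q array in 1. In the fit without a filter the changes were 0.11, 0.57 and -0.50, with adjusted p of 0.925, 0.411 and 0.597. The second probe was not well above background on any WT array, and its AR113Q mean lay 0.0071 log2 units above the bound that the WT arrays allow. A change in Prmt6 was not detectable at this signal, and its absence was not shown. Of the other arginine methyltransferases, 7 were tested, 0 were higher and 1 lower, with a median of -0.12; Prmt2 gave -1.38 (adjusted p = 0.00601), and Carm1, a partner of the p160 proteins, gave -0.17 (adjusted p = 0.555).

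**Figure D3:**
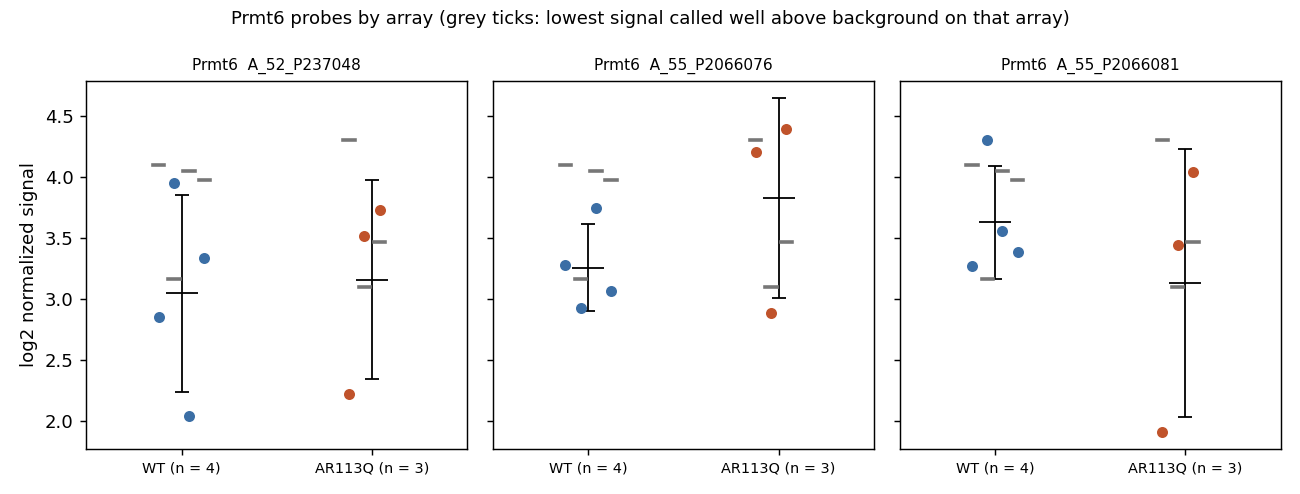
Log2 normalized signal (vertical axis) of the 3 Prmt6 probes for WT (4 arrays, blue) and AR113Q (3 arrays, orange), with the mean and SD; grey ticks mark the lowest signal called well above background on that array, which ran from 3.09 to 4.30. Points above and below the ticks occur in both genotypes.

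Beyond the complexes of the members, the list of other androgen receptor coregulators had 30 tested genes, of which 12 were higher and 5 lower, with a median of 0.41. The histone demethylases Kdm3a (1.96, adjusted p = 0.000177) and Kdm4a (1.71, adjusted p = 0.000288) had the smallest adjusted p among those higher. Tgfb1i1, a focal adhesion coactivator (-1.68, adjusted p = 0.000877), and Flna, an actin crosslinker that binds the receptor (-1.11, adjusted p = 0.00220), had the smallest among those lower. The receptor's chaperones gave 1 higher and 2 lower of 8, with a median of -0.02: Fkbp5, a cochaperone and a known androgen and glucocorticoid target, gave 1.65 (adjusted p = 0.0134), Fkbp4 gave -1.31 (adjusted p = 0.00273), and Stub1, a ubiquitin ligase, gave -0.48 (adjusted p = 0.0349). Over all 7 lists, 74 of 81 genes were tested, 19 were higher and 11 lower, and the median change was 0.09. An absolute log2 change of 1 was also reached by 13 of those higher and 5 of those lower, against 11.2% and 13.1% of all genes.

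**Figure D4:**
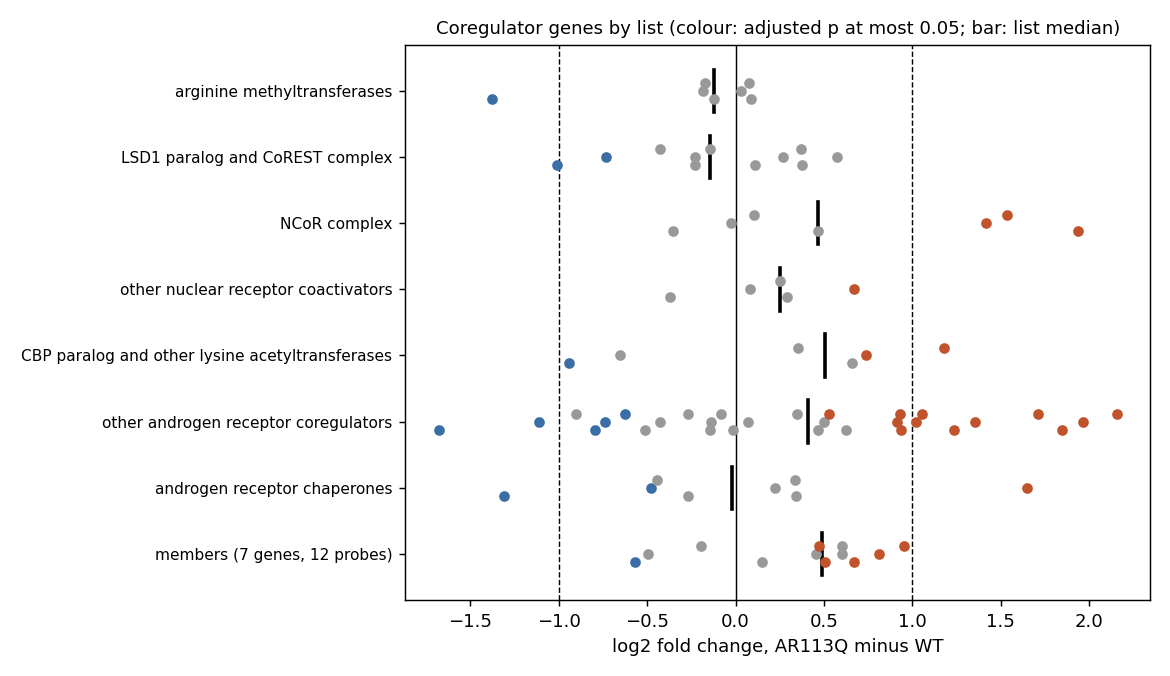
Log2 fold change, AR113Q minus WT (horizontal axis), of the 74 tested coregulator genes by list and of the 12 member probes; colour marks an adjusted p of at most 0.05, bars are medians, and dashed lines mark -1 and 1. The 3 called genes of the NCoR list lie beyond 1, while all member probes lie between -1 and 1.

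The genes whose signal ran most like that of each member over the 7 arrays, by Pearson correlation among 13679 genes well above background on all arrays, were the following, as a description that mixes the genotype difference with the spread inside the groups. Kdm1a was most like Dnajb6 (r = 0.998), Hp1bp3 and Tmem205. Ncoa1 was most like Mapk1ip1l (r = 0.991), B230213L16Rik and Fah. Ncoa2 was most like TC1659587 (r = 0.995), a transcript known by its array name only, Tmco4 and Pik3ip1. The bright Ncoa3 probe was most like D15Ertd509e (r = 0.972), Ogt and Nrg4, and Ncoa4 was most like Rfc2 (r = 0.996), Rab3il1 and Ptgir. Ncor1 was most like Axin1 (r = 0.997), Zfp318 and Trir. Crebbp was most like Ldha (r = 0.981), an unnamed transcript ENSMUST00000186115 and Egln1.

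The arrays were read whole-muscle, and for each value fewer cells of a type and less RNA per cell cannot be told apart. Muscle fibre markers were bright in all arrays, and of 7 genes 1 was lower and 0 higher. The log2 of their summed signal, which the brightest genes lead, was 19.7 to 19.8 in WT and 19.2 to 19.8 in AR113Q. Sums for the other cell types were taken in the same way. Markers of other cells were also measured, all of them well above background on at least 3 arrays, and some moved with genotype. Of 5 adipocyte markers 3 were lower, with a sum of 15.8 to 16.5 in WT and 15.2 to 15.5 in AR113Q, and of 5 macrophage markers 3 were lower, 12.6 to 13.5 against 12.01 to 12.4. Of 5 fibroblast markers 3 were lower, while the sum, which Dcn leads, was 16.0 to 16.2 against 16.1 to 16.6. Of 5 endothelial markers 2 were higher (11.3 to 12.02 against 11.8 to 12.5), of 5 Schwann cell markers 1 was higher and 2 lower (10.2 to 11.6 against 9.61 to 9.69), and of 3 erythrocyte markers none was called (15.4 to 17.7 against 15.5 to 15.8). Their part in the changes of the members was not tested. The 75th percentile of the raw intensity was 217 to 322 in WT and 374 to 427 in AR113Q, and no spot was saturated. Before normalization the groups overlapped for Crebbp (2146 to 2488.7 in WT, 2193.3 to 2936.3 in AR113Q) and Ncoa4 (1214.5 to 1902.4 and 1572 to 2092.2). Their lower direction is that of the normalized signal, and it held with 75th percentile scaling (-0.39 and -0.46).

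The stability of the member values differed. Kdm1a kept its call in 19 of 20 alternatives, with changes from 0.75 to 1.26, and lost it only with slide as a fixed effect (adjusted p = 0.0675). Ncoa4 kept it in 18 of 20, from -0.65 to -0.46. The brightest Ncor1 probe was called in 14 of 20, from 0.46 to 1.09, the brightest Ncoa1 probe in 10 of 20, from 0.40 to 0.59, and the second Ncoa1 probe in 11 of 18, from 0.46 to 0.61. The dim Ncoa3 probe was called in 5 of 18. Several of these calls were lost when 1 array was left out. Ncor1 lost it without WT replicate 1, 2 or 3, at changes of 0.63 to 0.68 (adjusted p 0.0520 to 0.0585). The brightest Ncoa1 probe lost it without any array but AR113Q replicate 2, at changes of 0.40 to 0.53 (adjusted p 0.0532 to 0.102). The second Ncoa1 probe lost it without AR113Q replicate 1 or 2 and without any WT array but replicate 1, at changes of 0.46 to 0.53 (adjusted p 0.0505 to 0.0837), and the dim Ncoa3 probe without any array but AR113Q replicate 2, at changes of 0.51 to 0.85 (adjusted p 0.0594 to 0.0877). Ncoa2 passed in 4 of 20 and Crebbp in 3 of 20. Leaving out single arrays left 2 to 6 member probes called, with 2 without WT replicate 2 and 3 without WT replicate 1, 3 or 4 or AR113Q replicate 1.

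**Figure D5:**
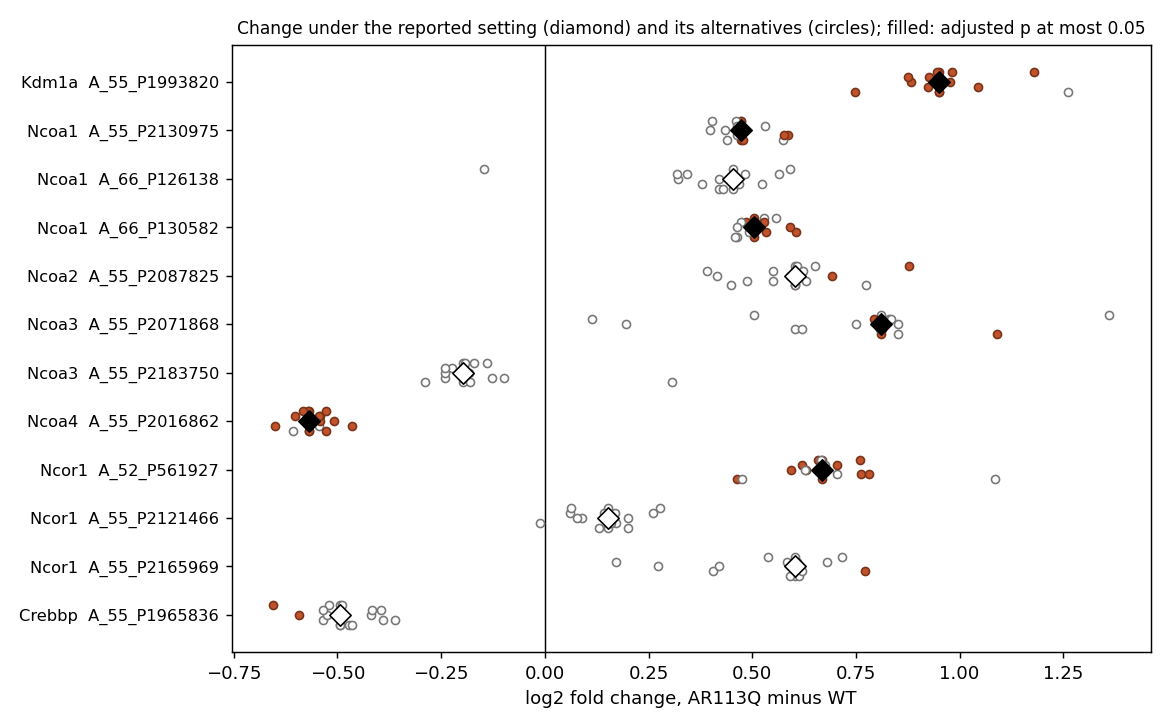
Log2 fold change, AR113Q minus WT (horizontal axis), of the 12 member probes under the reported setting (diamonds) and its alternatives (circles), filled where the adjusted p is at most 0.05; for a gene with several probes, the circle for the mean over its probes is drawn with the brightest probe. Kdm1a stays between 0.75 and 1.26 and is filled in 19 of 20 alternatives, while the dim Ncoa3 probe runs from 0.11 to 1.36.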

How the data were processed

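Quadriceps RNA from 4 WT and 3 AR113Q mice was labelled with Cy3 and hybridised to Agilent mouse arrays. The authors extracted spots with Agilent Feature Extraction 10.7.3.1, according to the submitters' processing notes, and deposited an intensity per spot, background-subtracted and not normalized between arrays. They also deposited log2 normalized values for 18592 probes, all matched to scanner probes, with array medians of 8.92 to 8.93. Correlations with the log2 signals used here were 0.956 to 0.973 across probes. For deviations from the mean of each probe they were 0.83 to 0.86. The authors' values include all 12 measurable member probes and were used as an alternative.

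From the deposited intensity, log2 was taken, outlier spots (94 to 151 per array) and control spots were left out, and quantile normalization was applied to the 43020 non-control spots. Values were averaged per probe, and a probe was kept where 3 or more of the 7 arrays had it well above background (20991 of 39429). On this scale dim signals are spread by the background subtraction. The number of arrays limits the precision, and no interval covers slide effects. The test between genotypes was limma 3.58.1 (R 4.3.3; lmFit, eBayes, Benjamini-Hochberg over all kept probes). The thresholds were an adjusted p of 0.05 and, for a differentially expressed gene, an absolute log2 change of 1. Same-gene probe pairs were compared by fitting the difference of their log2 signals in the same way, and coregulator and marker lists by the brightest kept probe of a gene. The procedure was tested on simulated data. RefSeq accessions (GRCm38.p6 gene table) named 28330 probes, and the scanner files named the rest.

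Members, lists and tests were chosen with earlier results of these data known. The genes named are all members by every probe, up to 2 genes per list and direction with the smallest adjusted p, and the 3 genes most like each member. Genes named outside that rule, chosen after their values were seen, are Rcor1, Hdac1, Hdac3, Med1, Ppargc1a, Carm1, Tbl1xr1, Dcn and the probes with CAG runs. The androgen receptor gene itself and some listed genes are not reported here. Alternatives were 75th percentile scaling, normexp correction (offset 50), the authors' values, other filters and probe rules, outlier spots kept, an intensity trend, slide as a random block or fixed effect, a replicate block, array weights, and leaving out each array.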

Additional observations from a re-analysis of the deposited data

Results flagged for a closer look

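In the 4 WT arrays, the Crebbp probe had 1 sample far from the others. WT replicate 1 read 11.70 against 11.29 to 11.33 in the other 3, and its gap to the nearest array was 0.902 of the group's range, above Dixon's critical value for 4 samples. All 15 member probes were checked in this way in WT, and chance alone flags about 1 in 20 groups. Without WT replicate 1 the change was -0.40.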

How the results depend on the processing

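Of 12 member probes, 6 were called by the adjusted p. This number was 3 with the mean over the probes of a gene (fewer values tested), and 2 to 6 when single arrays were left out. It was 0 with slide as a fixed effect and 1 with the replicate number as a block. Both of these fits leave less information on the spread than the main fit. WT replicate 4, alone at its number, adds nothing under the block. The brightest Ncor1 probe changed by 0.70 there, as it did without that array. Any other cause was not tested. The number past both thresholds was 0, but 1 with 75th percentile scaling and 0 to 1 when single arrays were left out (1 without AR113Q replicate 2 or 3). Over all probes 5208 passed both thresholds, 2075 after normexp correction, 1592 in the authors' values, 0 with slide as a fixed effect (7928 at an unadjusted p of at most 0.05) and 5190 with the replicate block. Of the coregulator genes 18 passed both, 11 after normexp, 9 in the authors' values and 0 with slide as a fixed effect. Of the same-gene pairs 961 passed, and 0 with slide as a fixed effect. The third Ncoa1 probe reversed with slide as a fixed effect (-0.15), the second Ncor1 probe with 75th percentile scaling (-0.012) and Ncoa3 as the mean over its probes (0.31). Uncalled differences between probes also changed sign: the first Ncoa1 pair with slide as a fixed effect (0.017), the other Ncoa1 pair with slide as a random block (-0.037) and with array weights (-0.030). With single arrays left out, the 3 pairs ran from -0.12 (without AR113Q replicate 3) to 0.12 (without AR113Q replicate 2), from -0.15 (without AR113Q replicate 1) to 0.15 (without AR113Q replicate 2), and, for the brightest Ncor1 probe and A_55_P2165969, from -0.14 (without WT replicate 3) to 0.26 (without WT replicate 1).

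The replicate numbers were not shown to pair the mice: deviations of same-numbered arrays correlated at 0.04, -0.02 and 0.16. Medians over all probes stayed within -0.05 and 0.03 under every setting. Low signal limits Prmt6, the dim Ncoa3 probe and 2 Ncor1 probes.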
